A study of Mus musculus with 12 samples.

Results

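Cultures of mouse embryonic fibroblasts (MEFs) lacking Kdm5a with Rb1 intact were compared with wild-type (WT) cultures after both had been driven towards muscle by MyoD. The Kdm5a KO group (Kdm5a-/-, "Kdm5a KO") and the WT group held 2 RNA-seq libraries each, 4 of the 12 libraries of the series, and both came from C57BL/6 MEFs. An adenovirus carrying MyoD was left on the cells for 24 h, and fresh medium without virus followed for 72 h. Throughout, the differentiation medium held 10 µg/ml of insulin and horse serum at 2%. RNA was taken from the whole culture, so fused myotubes and the cells that did not fuse were sequenced together, after ribosomal RNA had been depleted from 1.7 µg of total RNA. Double knockout (DKO, Kdm5a-/-;Rb1-/-) and Rb1 KO (Rb1-/-) cultures of the same kind, 2 libraries each, served for the question whether a change depended on Rb1. Whether replicate libraries stem from different embryos is not labelled, nor are the region of the embryo and its sex, so p-values measure only the spread between these libraries.

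KDM5A (also called RBP2 or JARID1A) removes methyl groups from lysine 4 of histone H3, a mark of active promoters, and was first found as a protein that binds the retinoblastoma protein, the product of Rb1. The retinoblastoma protein holds back the E2F factors that drive cell division, and muscle cells need it to leave the cell cycle and to mature. MyoD is a transcription factor that turns fibroblasts into muscle cells: it binds E-box sequences, switches on Myog and, with it, the genes of the sarcomere, the contractile unit. The series asked how loss of Kdm5a, of Rb1 or of both bears on this conversion.

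Of 36229 genes in the table, 17199 had a mean value of at least 10 over the 8 mixed libraries and were tested, and 15445 of these lay on a known chromosome other than X and Y. X and Y were set aside because Xist and Y-linked transcripts divided the groups, as described below. A value is a read count divided by a size factor of the library, called normalised reads here. A gene is said to have risen or fallen where limma's test on log2(value + 1) gave an adjusted p under 0.05, and log2 changes are Kdm5a KO minus WT on that scale, given with their standard error (SE). On it, 2095 genes rose (13.6%) and 2198 fell (14.2%), together 27.8%, and the median over all 15445 genes was 0.00. The median rise was 0.60 and the median fall -0.53, and 599 genes rose (3.88%) and 494 fell (3.2%) by at least 2-fold. The 2 Kdm5a KO libraries both lay above or both below the WT libraries for 9519 genes (61.6%). Without Kdm5a KO replicate 1, 1240 genes rose. With TMM scaling 2465 rose and 1866 fell, so which direction held more genes depended on the scaling. Because cultures were sequenced whole, fewer cells of a type and less RNA per cell cannot be told apart in any of these changes.

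**Figure D1:**
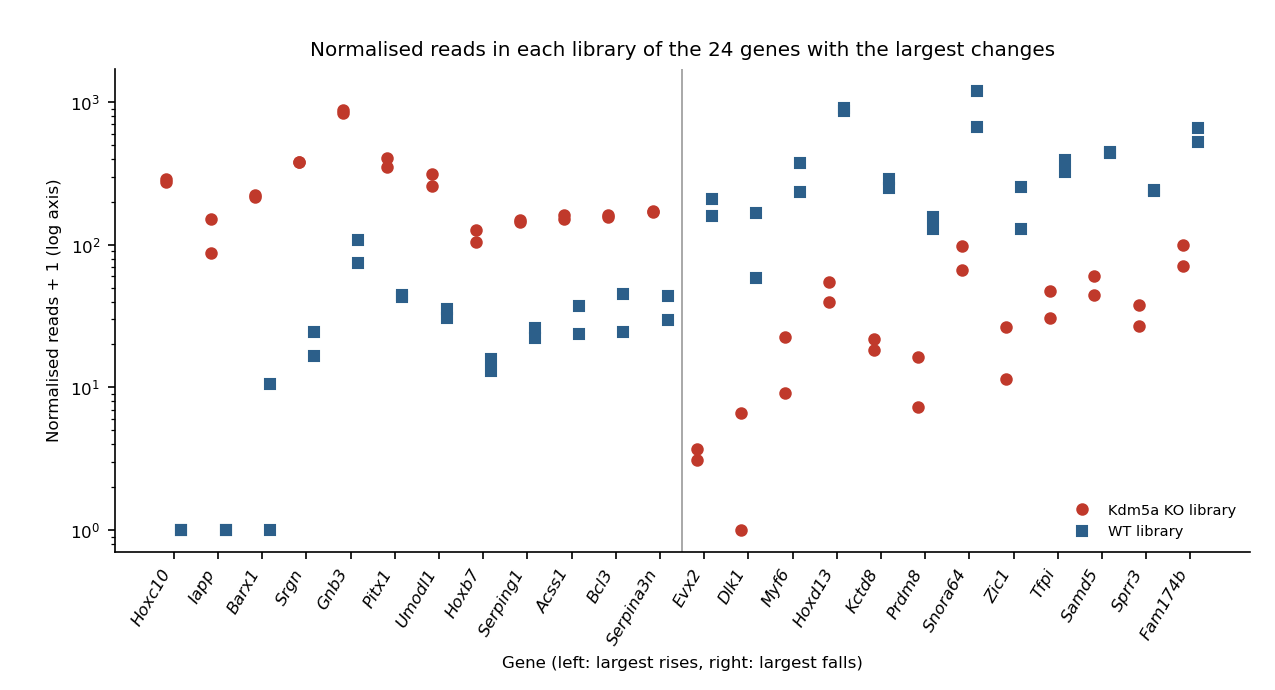
Normalised reads plus 1 (log axis) in each library for the 12 genes with the largest rise and the 12 with the largest fall outside X and Y; circles are the 2 Kdm5a KO libraries and squares the 2 WT libraries. No gene has overlapping groups, which was a condition for being shown, and 2 rises (Hoxc10 and Iapp) have no read in either WT library.

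The promoters of 4 genes that fell are shown as sequence only, and no result below rests on them. The 4 genes are named below among the results on position and on the nerve-muscle synapse. Hoxd13 and Evx2 are neighbours on chromosome 2 and both fell, Zic1 is a zinc finger factor of dorsal tissues that fell, and Musk encodes the receptor kinase that organises the muscle side of the nerve-muscle synapse. Each run is the RefSeq window (GRCm38.p6) from 250 bases before to 50 after the start of the gene, 5′ to 3′ on the strand of the gene. Capitals mark CCGCCC or its complement GGGCGG, the letters reported for the DNA-binding domain of KDM5A, and CAGCTG, an E-box that MyoD binds and that reads the same on both strands. CCGCCC is also the core of a GC-box bound by Sp1, and overlapping copies are counted separately. Hoxd13 lies at chr2:74667975-74668274 on the plus strand with 7 copies of CCGCCC, Evx2 at chr2:74659508-74659807 on the minus strand with 0, Zic1 at chr9:91365719-91366018 on the minus strand with 3, and Musk at chr4:58285712-58286011 on the plus strand with 0 and 1 copy of CAGCTG. Of 27025 promoter windows of this length, 35.9% hold CCGCCC on either strand and 16.1% hold CAGCTG. Of the 11122 windows matched to a tested gene, 62.1% hold CCGCCC and 15.8% hold CAGCTG.
Hoxd13: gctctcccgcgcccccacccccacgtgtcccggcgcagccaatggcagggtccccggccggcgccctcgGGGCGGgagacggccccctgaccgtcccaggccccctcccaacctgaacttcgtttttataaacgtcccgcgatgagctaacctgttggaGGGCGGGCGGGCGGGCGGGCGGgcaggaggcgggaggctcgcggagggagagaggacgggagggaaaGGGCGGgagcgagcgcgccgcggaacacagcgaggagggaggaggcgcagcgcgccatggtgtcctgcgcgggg
Evx2: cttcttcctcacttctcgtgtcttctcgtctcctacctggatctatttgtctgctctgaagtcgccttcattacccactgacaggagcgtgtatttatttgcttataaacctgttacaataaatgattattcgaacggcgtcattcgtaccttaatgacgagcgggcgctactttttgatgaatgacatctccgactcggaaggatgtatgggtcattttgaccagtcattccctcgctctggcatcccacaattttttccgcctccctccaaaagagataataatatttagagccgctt
Zic1: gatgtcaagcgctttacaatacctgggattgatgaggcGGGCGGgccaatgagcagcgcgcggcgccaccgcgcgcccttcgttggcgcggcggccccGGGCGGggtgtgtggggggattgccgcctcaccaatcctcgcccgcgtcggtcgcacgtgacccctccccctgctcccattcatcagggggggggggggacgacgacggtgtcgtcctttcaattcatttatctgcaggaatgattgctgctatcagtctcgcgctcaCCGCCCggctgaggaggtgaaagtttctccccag
Musk: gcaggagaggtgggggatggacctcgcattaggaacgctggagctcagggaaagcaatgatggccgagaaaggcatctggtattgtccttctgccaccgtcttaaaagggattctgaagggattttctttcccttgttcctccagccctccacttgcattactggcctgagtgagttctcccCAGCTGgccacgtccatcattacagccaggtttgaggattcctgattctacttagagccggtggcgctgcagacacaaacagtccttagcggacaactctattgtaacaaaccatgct

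Kdm5a itself, the deleted gene, had 1088 and 1192 normalised reads in the Kdm5a KO libraries, against 1637 and 1871 in the WT libraries. The KO libraries lay below both WT libraries, and the gene fell (log2 change -0.62 ± 0.084, adjusted p = 0.000189). Reads remained in the KO libraries: the deleted exons are not named in the labels, and Kdm5a shares exons with Ccdc77. Of its relatives, Kdm5b had 2255 and 2046 in Kdm5a KO, against 1878 and 2113 in WT, a difference that did not pass (adjusted p = 0.33). Kdm5c, on the X chromosome, had 3227 and 3296 in Kdm5a KO, against 2579.6 and 2748 in WT, and rose by 0.29 ± 0.062, and Kdm5d, on Y, had 0 reads in both KO libraries, against 712 and 765 in WT, at least 625-fold lower in Kdm5a KO (bound from 3 reads over the group). Rb1 had 5079 and 5193 in Kdm5a KO, against 5616 and 5649.5 in WT, and did not pass (adjusted p = 0.0692).

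Y-linked transcripts and Xist, the X-linked RNA that coats an inactive X chromosome in female cells, split the groups. Xist had 3109.9 and 3251 normalised reads in the Kdm5a KO libraries, against 0 in both WT libraries, at least 1886-fold higher in Kdm5a KO. Ddx3y, a Y-linked helicase, had 0 in both KO libraries, against 3319 and 3308 in WT, at least 2799-fold lower in Kdm5a KO, and Eif2s3y, a Y-linked initiation factor subunit, was at least 1587-fold lower. Uty, the Y-linked relative of the demethylase gene Kdm6a, had 1 read over the KO libraries and 5410 over the WT libraries, a ratio of 7728 in favour of WT (95% counting interval 1387 to 305314). Kdm6a, on X, had 2490.4 and 2435 in Kdm5a KO, against 1584 and 1675 in WT, and rose by 0.60 ± 0.065. The Kdm5a KO libraries thus held Xist and at most 1 read of each of these Y-linked genes, and the WT libraries held the Y-linked genes and no Xist, so sex and loss of Kdm5a cannot be told apart in any change given here. On X, 107 genes rose (16.4%) and 74 fell (11.4%) of 651.

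The 26 genes outside X and Y that encode KDM5 proteins, their partners, pocket proteins, E2F factors and the MuvB core were called about as often as other genes: 2 rose and 4 fell of 26 tested (7.69% and 15.4%; median 0.016), against 13.6% and 14.2% of all genes. Besides Kdm5a, Gatad1, a partner of KDM5A in a chromatin complex, fell (2062 and 1973 in Kdm5a KO, against 2739 and 2738 in WT; -0.44 ± 0.058), as did Rbbp4, a histone chaperone of several repressor complexes (5795 and 5381 in Kdm5a KO, against 6826 and 6895 in WT; -0.30 ± 0.053). Tfdp2, an E2F partner, had 496 and 461 in Kdm5a KO, against 528 and 683 in WT, and only just passed (adjusted p = 0.0496; 0.0935, 0.214 and 0.34 without Kdm5a KO replicate 1, Kdm5a KO replicate 2 and WT replicate 2). Lin9 of the MuvB core rose (156 and 183 in Kdm5a KO, against 112 and 122 in WT; 0.53 ± 0.13), but not without Kdm5a KO replicate 2 (adjusted p = 0.0664), and E2f2 rose (976 and 914 in Kdm5a KO, against 855 and 643 in WT; 0.35 ± 0.11), but not without Kdm5a KO replicate 1, Kdm5a KO replicate 2 or WT replicate 2 (adjusted p = 0.178, 0.0809 and 0.257). The pocket protein genes Rbl1 (215 and 195 in Kdm5a KO, against 219 and 181 in WT) and Rbl2 (968 and 1027 in Kdm5a KO, against 997 and 1102 in WT) did not pass. Neither did E2f1 (537 and 645 in Kdm5a KO, against 695 and 611 in WT), E2f3 (847 and 858 in Kdm5a KO, against 916 and 866 in WT) or E2f4 (1294 and 1211 in Kdm5a KO, against 1204 and 954 in WT). Rbbp7, on X, rose by 0.25 ± 0.066, with an adjusted p of 0.0893 without Kdm5a KO replicate 2 and 0.0808 without WT replicate 2. The remaining members (E2f5, E2f6, E2f7, E2f8, Tfdp1, Emsy, Lin37, Lin52, Lin54, Morf4l1, Phf12, Sin3a and Sin3b) did not pass. Of the KDM5, pocket proteins and E2F list, 0 rose in a fit of the 4 libraries alone and without Kdm5a KO replicate 2, and 1 rose with no filter on low values and without Kdm5a KO replicate 1. Also, 4 rose without WT replicate 1, and the median lay between -0.053 without Kdm5a KO replicate 2 and -0.018 without WT replicate 1.

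Muscle regulators divided. MyoD transcripts (Myod1) had 4124 and 4120.2 normalised reads in the Kdm5a KO libraries, against 5852 and 6886 in the WT libraries, and fell by 0.62 ± 0.093 (adjusted p = 0.000387); reads of the cell's own gene and of the virus cannot be told apart in these counts. Myog, the differentiation factor that acts after MyoD, had 8748 and 8969 in Kdm5a KO, against 16127 and 18252 in WT. Both KO libraries lay far below both WT libraries, and Myog fell by 0.95 ± 0.057 (adjusted p = 3.83e-07). Myf6, the MyoD relative of mature fibres, had 8.14 and 21.7 in Kdm5a KO, against 235 and 374 in WT, and fell by 4.37 ± 0.64. Srf, which drives actin and other contractile genes, had 658 and 802 in Kdm5a KO, against 1348 and 1483 in WT, and fell by 0.96 ± 0.10. Cdh2, an adhesion protein of fusing myoblasts, had 2056 and 1906 in Kdm5a KO, against 3201 and 2861 in WT, and also fell (-0.61 ± 0.072). Itga7, the muscle laminin receptor subunit, went the other way with 11654 and 11374 in Kdm5a KO, against 7513 and 6912 in WT, a rise of 0.68 ± 0.056, and the fusion protein gene Mymk had 11457 and 10702 in Kdm5a KO, against 11839 and 12358 in WT, which did not pass (adjusted p = 0.0816). Of the list of myogenic regulators and fusion genes 6 rose and 11 fell of 29 tested (20.7% and 37.9%; median -0.13). Among inhibitors of MyoD 4 rose and 4 fell of 18 tested (22.2% and 22.2%; median 0.029): Id1 and Id3, which tie up the partners of MyoD, fell (log2 changes -0.82 ± 0.088 and -0.89 ± 0.086), Twist1 had 172 and 186 in Kdm5a KO, against 248 and 253 in WT, and fell (-0.48 ± 0.11; adjusted p = 0.0556 in a fit of the 4 libraries alone), and Zeb1, a repressor of E-box genes, had 11706 and 11725 in Kdm5a KO, against 9782 and 9305 in WT, and rose (0.30 ± 0.068). Of the myogenic regulators and fusion list, 3 rose without Kdm5a KO replicate 1, and the median lay between -0.16 without Kdm5a KO replicate 1 and -0.078 without Kdm5a KO replicate 2. Of the inhibitors of MyoD list, 2 rose without Kdm5a KO replicate 1 and without WT replicate 1, and the median lay between -0.27 without WT replicate 1 and 0.16 without WT replicate 2.

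Sarcomere genes fell more often than they rose: 8 rose and 20 fell of 49 tested (16.3% and 40.8%; median -0.13), against 14.2% of all genes that fell. Myh1, an adult fast myosin heavy chain, had 5672 and 6228 normalised reads in the Kdm5a KO libraries, against 13805 and 13381 in the WT libraries, and it fell by 1.19 ± 0.064 (adjusted p = 1.53e-07). Tnnc2, fast troponin C, had 9659.7 and 10476 in Kdm5a KO, against 18993 and 18540.1 in WT, and fell by 0.90 ± 0.068; it shares exons with Ube2c. Skeletal actin (Acta1) had 4889 and 5097 in Kdm5a KO, against 8960.3 and 9877 in WT, and fell by 0.91 ± 0.10, and the giant thin filament protein gene Neb had 11224 and 12191 in Kdm5a KO, against 18682 and 16672 in WT, and fell by 0.59 ± 0.064. Embryonic myosin heavy chain (Myh3), the most abundant of these, had 99141 and 107427 normalised reads in the Kdm5a KO libraries, against 77084 and 76912 in the WT libraries, and rose by 0.42 ± 0.051 (adjusted p = 7.36e-05). Actn3, the fast-fibre Z-disc crosslinker, had 17326 and 17316 in Kdm5a KO, against 11175 and 10976 in WT, and rose by 0.65 ± 0.049. Summed over the list, values were 650215 to 691749 in Kdm5a KO and 727875 to 752404 in WT. The 8 skeletal muscle markers were all expressed, 1 rose and 6 fell, and their sum was 160116 to 168387 in Kdm5a KO and 162458 to 166105 in WT. Myh3, the 1 that rose, supplied 99141 and 107427 of the Kdm5a KO sums and 77084 and 76912 of the WT sums. The near-equal sums therefore depend on Myh3. Of the sarcomere list, 3 rose without Kdm5a KO replicate 2, and 5 rose without WT replicate 1. For sarcomere, the median lay between -0.23 without Kdm5a KO replicate 2 and -0.037 without Kdm5a KO replicate 1.

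Genes of calcium handling and the nerve-muscle junction fell more often than they rose: 0 rose and 13 fell of 32 tested (0% and 40.6%; median -0.14). Musk, whose promoter is shown above, had 1654 and 1799 normalised reads in the Kdm5a KO libraries, against 4442 and 4721 in the WT libraries. The groups were far apart relative to the difference within each, and Musk fell by 1.41 ± 0.090 (adjusted p = 5.96e-07). Dok7, the activator of the MUSK kinase, had 1944 and 1787 in Kdm5a KO, against 2663 and 2733 in WT, and fell by 0.53 ± 0.069. Colq, which anchors acetylcholinesterase at the synapse, had 46.1 and 46.9 in Kdm5a KO, against 140.0 and 109 in WT, and fell by 1.39 ± 0.22. Atp2a1, the calcium pump of fast muscle, had 11637 and 10669.9 in Kdm5a KO, against 23361 and 21470.4 in WT, and fell by 1.01 ± 0.10. Jph2, which joins the surface membrane to the calcium store, had 3235 and 3338 in Kdm5a KO, against 5067 and 5113 in WT, and fell by 0.63 ± 0.054. Cacng1, a subunit of the muscle calcium channel, fell by 0.52 ± 0.068. In muscle energy metabolism 5 rose and 8 fell of 27 tested (18.5% and 29.6%; median -0.16). Ckm, muscle creatine kinase, had 1293 and 883 in Kdm5a KO, against 2827 and 2456 in WT, and fell by 1.30 ± 0.14 (adjusted p = 3.22e-05), and the oxygen carrier myoglobin (Mb) had 2309.6 and 2847 in Kdm5a KO, against 4398 and 4651 in WT, and fell by 0.82 ± 0.085. Gys1, glycogen synthase, fell by 0.49 ± 0.061. Adssl1, the muscle adenylosuccinate synthase, had 4251 and 4605 in Kdm5a KO, against 2889 and 2878 in WT, and rose by 0.62 ± 0.071. Ppargc1a, the coactivator of mitochondrial genes, had 409.6 and 390.0 in Kdm5a KO, against 345 and 257 in WT, and did not pass (adjusted p = 0.0581). Among muscle ubiquitin ligases and Foxo factors 1 rose and 6 fell of 17 tested (5.88% and 35.3%; median -0.25). Klhl31 had 3644 and 3865 in Kdm5a KO, against 6039.7 and 6082 in WT, and fell by 0.69 ± 0.059. Asb5 had 2471 and 2669.6 in Kdm5a KO, against 3692 and 4169 in WT, and fell by 0.61 ± 0.11. Foxo3 had 615 and 730.2 in Kdm5a KO, against 1024 and 1037 in WT, and fell by 0.62 ± 0.091. Foxo1 fell by 0.33 ± 0.091, but with adjusted p of 0.0811, 0.0616 and 0.0923 without Kdm5a KO replicate 1, Kdm5a KO replicate 2 and WT replicate 1. Myod1, which fell beside these lists, may carry reads of the virus, and its part in these results was not tested. Of the calcium handling and junction list, 1 rose with 5 added instead of 1, with a minimum mean of 50, in a fit of the 4 libraries alone, with TMM scaling, with total-count scaling, with edgeR, with DESeq2 and without WT replicate 1, and the median was -0.080 with no filter on low values. Of the muscle energy metabolism list, 2 rose without Kdm5a KO replicate 1, and the median lay between -0.18 without WT replicate 2 and -0.084 without WT replicate 1. Of the muscle ubiquitin ligases and Foxo list, 0 rose in a fit of the 4 libraries alone, without Kdm5a KO replicate 1 and without WT replicate 1, and 3 fell without Kdm5a KO replicate 2 and without WT replicate 1. For muscle ubiquitin ligases and Foxo, the median lay between -0.23 without WT replicate 2 and -0.16 without Kdm5a KO replicate 1.

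**Figure D2:**
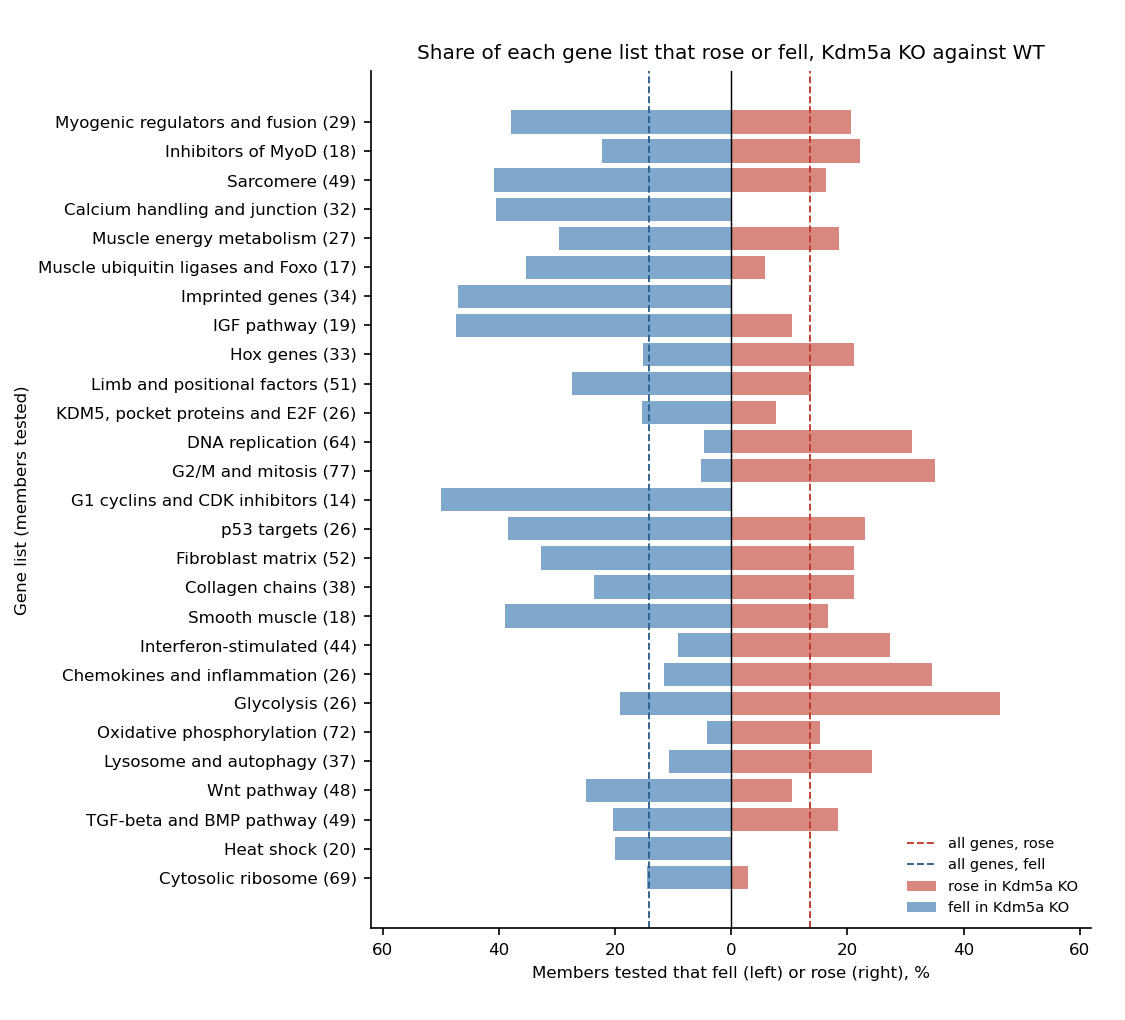
Share of the tested members of 27 gene lists that fell (left, blue) or rose (right, red) in Kdm5a KO against WT, in percent of the number in brackets; dashed lines mark the shares of all genes outside X and Y (13.6% rose, 14.2% fell). No member of the calcium handling and junction, imprinted, G1 cyclin and CDK inhibitor, or heat shock lists rose as plotted, though a member of each rose under at least 1 alternative setting. Lists in which more members rose than fell include DNA replication, G2/M and mitosis, interferon-stimulated genes, chemokines, glycolysis, oxidative phosphorylation, lysosome and autophagy, and Hox genes.

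More genes of cell division rose than fell, and several inhibitors of the cell cycle fell. Of 64 DNA replication genes 20 rose and 3 fell (31.2% and 4.69%; median 0.16), and of 77 genes of G2/M and mitosis 27 rose and 4 fell (35.1% and 5.19%; median 0.28), against 13.6% and 14.2% of all genes. Asf1b, a histone chaperone of replication, had 1668 and 1380.0 normalised reads in the Kdm5a KO libraries, against 677 and 553 in the WT libraries, and rose by 1.31 ± 0.10 (adjusted p = 2.53e-06). Timeless, a replication fork protein, had 120.3 and 107 in Kdm5a KO, against 37.1 and 25.6 in WT, and rose by 1.85 ± 0.24. Ccna2, the S-phase cyclin, had 665 and 604 in Kdm5a KO, against 312 and 310.2 in WT, and rose by 1.02 ± 0.079. Mcm6 of the replicative helicase had 293 and 337 in Kdm5a KO, against 165 and 179 in WT, and rose by 0.87 ± 0.095. Cenpf, a kinetochore protein, had 183 and 214 in Kdm5a KO, against 40.7 and 45.8 in WT. Both KO libraries lay above both WT libraries, and it rose by 2.17 ± 0.13 (adjusted p = 4.46e-07). The next genes rose as well: Sgo2a, a protector of centromeric cohesion, had 36.2 and 40.6 in Kdm5a KO, against 7.18 and 5.33 in WT (log2 change 2.45 ± 0.20), Cdk1, the mitotic kinase, had 138 and 102 in Kdm5a KO, against 46.7 and 72.5 in WT (1.01 ± 0.18), Prc1, a midzone microtubule protein, had 153 and 188 in Kdm5a KO, against 58.6 and 76.7 in WT (1.32 ± 0.14), and Smc4 of condensin had 1326 and 1577 in Kdm5a KO, against 841 and 858 in WT (0.77 ± 0.075). Of the 4 G2/M genes that fell, Kif18a, a kinesin that aligns chromosomes, had 35.3 and 37.8 in Kdm5a KO, against 71.8 and 89.5 in WT, and fell by 1.11 ± 0.16 (adjusted p = 0.000338); it shares exons with Mettl15. Cenpp had 2694 and 2581 in Kdm5a KO, against 4288 and 4286 in WT, and fell by 0.70 ± 0.051; it shares exons with Aspn, a matrix gene that fell as well. Troap, a spindle protein, had 2.71 and 6.30 in Kdm5a KO, against 7.18 and 20.3 in WT, and fell by 1.34 ± 0.45 (adjusted p = 0.045, and 0.268 and 0.287 without Kdm5a KO replicate 1 and WT replicate 2). Kif18b, a kinesin, had 5.43 and 2.80 in Kdm5a KO, against 5.98 and 13.9 in WT, and fell by 1.04 ± 0.36 (adjusted p = 0.0498, and 0.269 and 0.293 without Kdm5a KO replicate 2 and WT replicate 2). The 3 DNA replication genes that fell were Cdc25a, Rpa2 and Mcm5. Cdc25a, a phosphatase that activates cyclin-dependent kinases, had 361 and 384 in Kdm5a KO, against 477 and 486 in WT, and fell by 0.37 ± 0.092 (adjusted p = 0.0102, and 0.0656 without Kdm5a KO replicate 1). Rpa2 of the single-strand binding complex had 191 and 280.1 in Kdm5a KO, against 347 and 327 in WT, and fell by 0.54 ± 0.15 (adjusted p = 0.0189, and 0.169 and 0.071 without Kdm5a KO replicate 1 and WT replicate 1). Mcm5 of the helicase had 44.3 and 63.0 in Kdm5a KO, against 79.0 and 73.6 in WT, and fell by 0.52 ± 0.15 (adjusted p = 0.0259, and 0.187 and 0.0803 without Kdm5a KO replicate 1 and WT replicate 1). Summed values of the G2/M list overlapped between the groups, at 15201 to 15387 in Kdm5a KO and 14673 to 15473 in WT. Cenpp alone made up 2694 and 2581 of the Kdm5a KO sums and 4288 and 4286 of the WT sums. The overlap depends on this gene, which shares exons with Aspn. Of the DNA replication list, 9 rose in a fit of the 4 libraries alone, and 13 rose without Kdm5a KO replicate 1. Also, 0 fell without Kdm5a KO replicate 1, and 1 fell in a fit of the 4 libraries alone. Also, 6 fell without WT replicate 2, and 7 fell without Kdm5a KO replicate 2. Of the G2/M and mitosis list, 10 rose in a fit of the 4 libraries alone, and 15 rose without Kdm5a KO replicate 1. Also, 2 fell with 5 added instead of 1, with no filter on low values, in a fit of the 4 libraries alone and with TMM scaling, and 7 fell without Kdm5a KO replicate 2 and without WT replicate 1. For G2/M and mitosis, the median lay between 0.14 without WT replicate 1 and 0.55 without WT replicate 2.

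Of 14 genes for G1 cyclins and inhibitors of cyclin-dependent kinases, 7 fell and 0 rose (50% and 0%; median -0.23), against 14.2% and 13.6% of all genes. Cdkn1c, the imprinted inhibitor p57, had 15424 and 15905 normalised reads in the Kdm5a KO libraries, against 32948 and 32878 in the WT libraries. The 2 values within each group nearly coincided, and it fell by 1.07 ± 0.044 (adjusted p = 1.19e-08). Cdkn2a, which encodes the p16 inhibitor and ARF, had 625 and 726 in Kdm5a KO, against 995 and 1095 in WT, and fell by 0.63 ± 0.085. Cdkn1a, the p21 inhibitor, had 36278 and 34142 in Kdm5a KO, against 42322 and 42279.8 in WT, and fell by 0.27 ± 0.046. Ccnd2, a D-type cyclin, had 493 and 478 in Kdm5a KO, against 826 and 843 in WT, and fell by 0.78 ± 0.085. Ccng1, a p53-induced cyclin, had 23784 and 23364 in Kdm5a KO, against 31909.7 and 31805 in WT, and fell by 0.43 ± 0.048. Among p53 targets 6 rose and 10 fell of 26 tested (23.1% and 38.5%; median -0.19). The death effector Bax had 1218 and 1038 in Kdm5a KO, against 2169 and 2007 in WT, and fell by 0.89 ± 0.080. Apaf1, which builds the apoptosome, had 603 and 592 in Kdm5a KO, against 983 and 899.7 in WT, and fell by 0.65 ± 0.068. Phlda3, an inhibitor of AKT, fell by 0.61 ± 0.062. Pmaip1, a BH3-only death protein, had 2730.1 and 3000.1 in Kdm5a KO, against 1887 and 1860.1 in WT, and rose by 0.61 ± 0.063. Of the G1 cyclins and CDK inhibitors list, 1 rose with TMM scaling, with edgeR and without WT replicate 1. Of the p53 targets list, 2 rose without Kdm5a KO replicate 2, and 3 rose in a fit of the 4 libraries alone and without Kdm5a KO replicate 1. For p53 targets, the median lay between -0.19 without Kdm5a KO replicate 1 and -0.12 without WT replicate 1.

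Hox genes, which mark position along the body and limb axes, changed by cluster. Of 33 tested, 7 rose and 5 fell (21.2% and 15.2%), against 13.6% and 14.2% of all genes, with a median of -0.10. In HoxD 4 of 7 genes fell and 0 rose (median -1.52). In HoxB 3 of 8 and in HoxC 4 of 7 rose and 0 fell (medians 0.42 and 1.48), and in HoxA 1 of 11 fell and 0 rose (median -0.30). Hoxd13, the gene of the distal limb and genital bud, had 38.9 and 53.9 normalised reads in the Kdm5a KO libraries, against 913 and 866 in the WT libraries, a log2 change of -4.25 ± 0.18 (adjusted p = 1.74e-08). Hoxd12 had 3 reads over the KO libraries and 111 over the WT libraries, a ratio of 52.9 in favour of WT (95% counting interval 17.6 to 260.2). Hoxd11 had 142 and 95.2 in Kdm5a KO, against 611 and 575 in WT, and fell by 2.34 ± 0.25. Hoxd10 had 224 and 139 in Kdm5a KO, against 526 and 488 in WT, and fell by 1.52 ± 0.25. Evx2, the homeobox gene beside Hoxd13, had 2.71 and 2.10 in Kdm5a KO, against 208 and 159 in WT, next to nothing in KO, and fell by 5.75 ± 0.51 (adjusted p = 6.94e-06). Hoxc10 had 274 and 289.9 in Kdm5a KO, against 0 reads in both WT libraries, at least 167-fold higher in Kdm5a KO; it shares exons with Hoxc5. Hoxc9 had 185 reads over the KO libraries and 1 over the WT libraries, a ratio of 129.5 (95% counting interval 22.96 to 5142). Hoxb7 had 103 and 126 in Kdm5a KO, against 11.96 and 14.9 in WT, and rose by 3.001 ± 0.26 (adjusted p = 6.81e-06). Hoxb6 and Hoxc6 rose by 2.22 ± 0.45 and 1.26 ± 0.26. Of the Hox genes list, 4 rose with a minimum mean of 50, and the median lay between -0.14 without WT replicate 1 and 0.0085 without Kdm5a KO replicate 1, the median was 0.080 with no filter on low values, the median was -0.21 with a minimum mean of 50 and the median was -0.055 with TMM scaling.

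**Figure D3:**
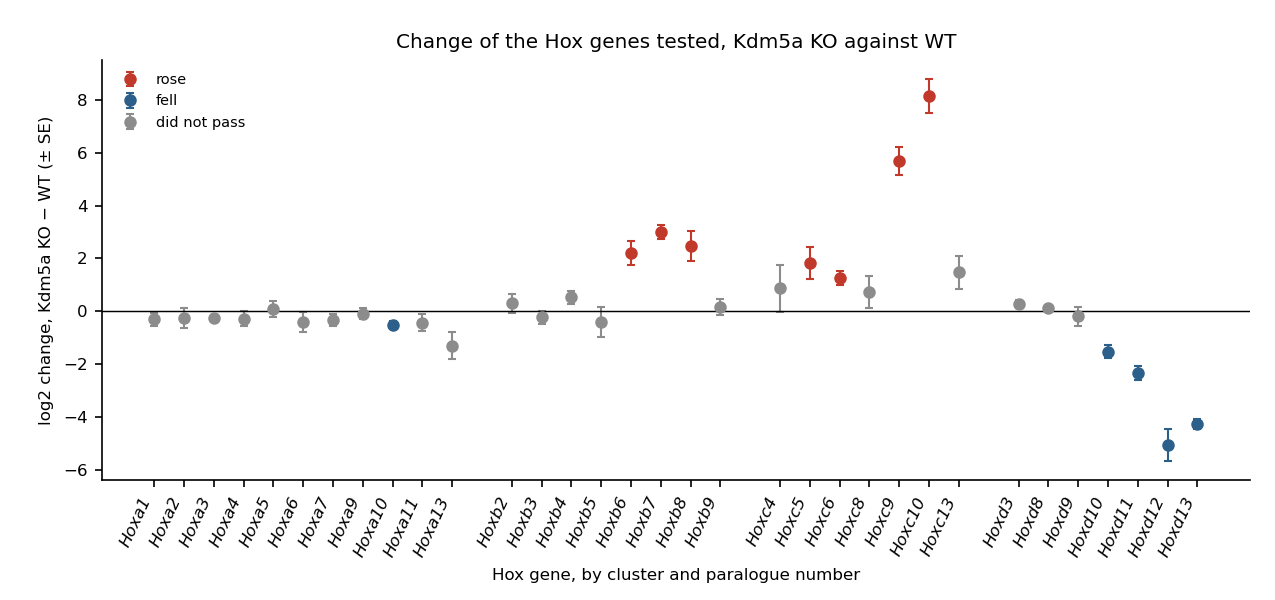
Fitted log2 change, Kdm5a KO minus WT, with its SE, of the 33 Hox genes tested, by cluster and paralogue number; red rose, blue fell, grey did not pass. Hoxd10 to Hoxd13 lie below 0, Hoxb6 to Hoxb8 and 4 HoxC genes above; the heights of Hoxc9, Hoxc10 and Hoxd12 depend on the added 1 because 1 group has at most 3 reads.

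Other transcription factors that mark position fell more often than they rose: 7 rose and 14 fell of 51 tested (13.7% and 27.5%; median -0.25), against 14.2% of all genes that fell. Tbx5, the forelimb factor, had 0.904 and 4.20 normalised reads in the Kdm5a KO libraries, against 45.5 and 38.4 in the WT libraries, and fell by 3.76 ± 0.61 (adjusted p = 0.00065). Pitx1, the hindlimb factor, had 408 and 348 in Kdm5a KO, against 41.9 and 43.7 in WT, with no overlap, and rose by 3.11 ± 0.36 (adjusted p = 6.24e-05). Zic1 had 25.3 and 10.5 in Kdm5a KO, against 128 and 252 in WT, and fell by 3.38 ± 0.38, though it shares exons with Zic4. Tbx3, a limb and flank factor, had 34.4 and 37.1 in Kdm5a KO, against 111 and 152 in WT, and fell by 1.84 ± 0.28. Hand2, a factor of the posterior limb bud, had 20.8 and 9.10 in Kdm5a KO, against 64.6 and 69.3 in WT, and fell by 2.19 ± 0.41. Lhx2 had 0.904 and 2.10 in Kdm5a KO, against 15.6 and 11.7 in WT, and fell by 2.58 ± 0.37 (-1.52 with 5 added instead of 1). Prrx1, a limb mesenchyme factor and the best expressed of these, had 1897 and 1772 in Kdm5a KO, against 3809.5 and 3765 in WT, and fell by 1.05 ± 0.058 (adjusted p = 1.98e-07). Osr2, a zinc finger factor of joints and palate, had 22.6 and 27.3 in Kdm5a KO, against 1.196 and 4.26 in WT, and rose by 2.93 ± 0.51. Barx1, a homeobox gene of the facial and stomach mesenchyme, had 215 and 222 in Kdm5a KO, against 0 and 9.59 in WT, and rose by 6.08 ± 0.77. Of the limb and positional factors list, 4 rose without WT replicate 1, and the median lay between -0.31 without WT replicate 1 and -0.10 without WT replicate 2.

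Imprinted genes, expressed from 1 parental copy, also fell more often than they rose: 0 rose and 16 fell of 34 tested (0% and 47.1%; median -0.25). Dlk1, a growth regulator made by immature mesenchyme, had 0 and 5.60 normalised reads in the Kdm5a KO libraries, against 57.4 and 165 in the WT libraries, and fell by 5.26 ± 0.72 (adjusted p = 0.000198). Its neighbours in the same imprinted domain, the non-coding RNA Meg3 and the retrotransposon-like gene Rtl1, are expressed from opposite parental copies; Meg3 had 5459 and 6619 in Kdm5a KO, against 15118 and 18461 in WT, and fell by 1.47 ± 0.12. Rtl1 had 607 and 905 in Kdm5a KO, against 1834 and 2483 in WT, and fell by 1.52 ± 0.24. Both share exons with microRNA genes. Igf2, the growth factor of the fetus and of differentiating muscle, had 43433 and 41939.7 in Kdm5a KO, against 59243 and 57783 in WT, and fell by 0.46 ± 0.047. Mest had 1533 and 1377 in Kdm5a KO, against 2509 and 2441 in WT, and fell by 0.77 ± 0.066. Around insulin-like growth factors 2 rose and 9 fell of 19 tested (10.5% and 47.4%; median -0.23). Igfbp3, a secreted binding protein, had 1374 and 1753 in Kdm5a KO, against 6295 and 8368 in WT, the largest fall of the 4 named (log2 change -2.22 ± 0.12, adjusted p = 1.93e-07). Igfbp4 had 922 and 1013 in Kdm5a KO, against 1699 and 1793 in WT, and fell by 0.85 ± 0.072. Pappa2, a protease of IGF-binding proteins, had 263 and 305 in Kdm5a KO, against 855 and 868 in WT, and fell by 1.60 ± 0.14. Irs1, the adaptor of the receptor, had 2422 and 2449.8 in Kdm5a KO, against 4092 and 4459.9 in WT, and fell by 0.81 ± 0.062. Of the imprinted genes list, 1 rose without WT replicate 2. Of the IGF pathway list, 1 rose with no filter on low values and without each of the 4 libraries in turn.

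Matrix genes went both ways: 11 rose and 17 fell of 52 tested (21.2% and 32.7%; median -0.13). Spp1, osteopontin, had 44307 and 37857 normalised reads in the Kdm5a KO libraries, against 10189 and 9438 in the WT libraries, the highest level among these, and rose by 2.06 ± 0.075 (adjusted p = 4.11e-09). Fibronectin (Fn1) had 2956 and 2994 in Kdm5a KO, against 1161 and 1452 in WT, and rose by 1.196 ± 0.12. Mfap4, an elastic fibre protein, had 755 and 636 in Kdm5a KO, against 2913 and 3059 in WT, and fell by 2.11 ± 0.081. Postn, periostin, had 309 and 339 in Kdm5a KO, against 887 and 1158 in WT, and fell by 1.64 ± 0.10. Aspn, a small proteoglycan, had 223 and 244 in Kdm5a KO, against 674 and 876 in WT, and fell by 1.71 ± 0.11. The platelet-derived growth factor receptor gene Pdgfrb had 144 and 178 in Kdm5a KO, against 303 and 362 in WT, and fell by 1.05 ± 0.14. Of collagen chains 8 rose and 9 fell of 38 tested (21.1% and 23.7%; median 0.019). The basement membrane chain gene Col4a1 had 847 and 896 in Kdm5a KO, against 2266 and 2313 in WT, and fell by 1.39 ± 0.059. Its partner Col4a2, which shares exons with it in the annotation, had 566 and 555 in Kdm5a KO, against 1399 and 1452 in WT, and fell by 1.35 ± 0.083. Col8a1 fell by 1.71 ± 0.14. Col11a1, a fibrillar chain of cartilage, had 1095 and 1006 in Kdm5a KO, against 462 and 438 in WT, and rose by 1.22 ± 0.11. Of smooth muscle genes 3 rose and 7 fell of 18 tested (16.7% and 38.9%; median -0.13); Tagln had 976 and 961 in Kdm5a KO, against 2260.1 and 2295 in WT, and fell by 1.23 ± 0.056. Acta2 had 27688 and 27586 in Kdm5a KO, against 37230.3 and 37645 in WT, and fell by 0.44 ± 0.040. Cald1 fell by 0.60 ± 0.057. Des, which skeletal muscle also makes, had 16407 and 15908 in Kdm5a KO, against 21741 and 22174 in WT, and fell by 0.44 ± 0.051. The 7 fibroblast markers summed to 3377 to 3681 in Kdm5a KO and 4928 to 5130 in WT (2 rose, 3 fell), and their part in these results was not tested. Thy1 and Pdgfra rose (log2 changes 0.76 and 1.12), Col1a2, Pdgfrb and Postn fell, and Col1a1 and Dcn did not pass. Col1a2 alone supplied 2530 and 2334 of the Kdm5a KO sums and 3313 and 3180 of the WT sums. Markers of macrophages summed to 46.1 to 56.7 in Kdm5a KO and 74.2 to 112 in WT, those of endothelium to 122 to 144 in Kdm5a KO and 94.9 to 99.3 in WT, those of nerve cells to 159 to 177 in Kdm5a KO and 120.5 to 152 in WT, those of fat cells to at most 7.70 in Kdm5a KO and 12.8 in WT, and those of epithelium to 29.8 to 31.5 in Kdm5a KO and 2.13 to 73.0 in WT, with Epcam and Krt18 at 0 in all 4 libraries. Of the fibroblast matrix list, 6 rose without Kdm5a KO replicate 2, and the median lay between -0.26 without WT replicate 1 and 0.0079 without WT replicate 2, the median was -0.20 with a minimum mean of 50 and the median was -0.20 in a fit of the 4 libraries alone. Of the collagen chains list, 5 rose without Kdm5a KO replicate 1, and the median lay between 0.036 without WT replicate 2 and 0.073 without Kdm5a KO replicate 1. Of the smooth muscle list, the median lay between -0.17 without WT replicate 2 and -0.024 without WT replicate 1, the median was -0.079 with no filter on low values, the median was -0.21 with a minimum mean of 50 and the median was -0.20 in a fit of the 4 libraries alone.

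Inflammatory genes rose more often than they fell: 9 rose and 3 fell of 26 tested (34.6% and 11.5%; median 0.33), against 13.6% of all genes that rose. The inflammatory genes named here all rose, and the 3 that fell are not named. Serpina3n, an acute-phase protease inhibitor, had 170.0 and 172 normalised reads in the Kdm5a KO libraries, against 28.7 and 42.6 in the WT libraries, and rose by 2.25 ± 0.22 (adjusted p = 1.85e-05). Il1rn, the interleukin-1 receptor antagonist, had 175 and 155 in Kdm5a KO, against 56.2 and 57.6 in WT, and rose by 1.51 ± 0.20. Ptgs1, cyclooxygenase 1, had 479 and 337 in Kdm5a KO, against 159 and 124 in WT, and rose by 1.51 ± 0.17, and the cytokine Lif had 178 and 128 in Kdm5a KO, against 44.3 and 69.3 in WT, and rose by 1.43 ± 0.21. Socs3, the feedback inhibitor of such cytokines, had 749 and 735 in Kdm5a KO, against 187 and 164 in WT, and rose by 2.08 ± 0.11 (adjusted p = 1.7e-07). Bcl3, an IκB-family regulator, had 156 and 162 in Kdm5a KO, against 44.3 and 23.5 in WT, and rose by 2.26 ± 0.28. Serping1, the inhibitor of the first complement component, had 143 and 148 in Kdm5a KO, against 25.1 and 21.3 in WT, and rose by 2.60 ± 0.25. Among interferon-stimulated genes 12 rose and 4 fell of 44 tested (27.3% and 9.09%; median 0.28). Gbp3, a guanylate-binding protein, had 47.9 and 62.3 in Kdm5a KO, against 0 reads in both WT libraries, at least 33.1-fold higher, and Zbp1, a sensor of nucleic acids, had 82 reads over the KO libraries and 3 over the WT libraries, a ratio of 19.1 (95% counting interval 6.32 to 94.7). Stat2, a factor of the interferon response, had 495 and 499 in Kdm5a KO, against 249 and 266 in WT, and rose by 0.95 ± 0.13. Ifitm3 rose by 1.32 ± 0.18. Ifit2 and Ifih1 went the other way, with 199 and 209 in Kdm5a KO, against 562 and 536 in WT for Ifit2, a log2 change of -1.42 ± 0.10, and 92.2 and 113 in Kdm5a KO, against 321 and 241 in WT for Ifih1, a log2 change of -1.44 ± 0.16. In the MHC class I list 4 rose and 0 fell of 17 tested (23.5% and 0%; median 0.0079), and its light chain B2m rose by 0.52 ± 0.064. Of the chemokines and inflammation list, 5 rose without Kdm5a KO replicate 1 or 2, and 1 fell without Kdm5a KO replicate 2. For chemokines and inflammation, the median lay between 0.16 without Kdm5a KO replicate 1 and 0.35 without WT replicate 2, the median was 0.15 with 5 added instead of 1 and the median was 0.075 with a minimum mean of 50. Of the interferon-stimulated list, 2 fell in a fit of the 4 libraries alone, and the median lay between 0.16 without Kdm5a KO replicate 2 and 0.38 without Kdm5a KO replicate 1. Of the MHC class I list, 1 rose in a fit of the 4 libraries alone, and 2 rose without Kdm5a KO replicate 1 and without WT replicate 2. Also, 1 fell without WT replicate 1, and the median lay between 0.023 without Kdm5a KO replicate 2 and 0.073 without WT replicate 2.

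In glycolysis 12 of 26 genes rose and 5 fell (46.2% and 19.2%; median 0.23), against 13.6% and 14.2% of all genes. The glycolysis genes named here all rose, and the 5 that fell are not named. Pdk1, the kinase that keeps pyruvate out of mitochondria, had 2632 and 2482 normalised reads in the Kdm5a KO libraries, against 808 and 1173 in the WT libraries, and rose by 1.39 ± 0.16 (adjusted p = 6.52e-05). Pfkl, a phosphofructokinase, had 2667 and 2604 in Kdm5a KO, against 1414 and 1586 in WT, and rose by 0.81 ± 0.087. Tpi1, triosephosphate isomerase, had 2579 and 2556 in Kdm5a KO, against 1530.3 and 1386 in WT, and rose by 0.82 ± 0.088. Slc16a3, a lactate exporter, had 3050.2 and 2824 in Kdm5a KO, against 1965 and 1897 in WT, and rose by 0.60 ± 0.066. Nuclear genes of oxidative phosphorylation were near the background for rises and below it for falls: 11 rose and 3 fell of 72 tested (15.3% and 4.17%; median 0.094). The complex I subunit gene Ndufa9 had 4513 and 4457 in Kdm5a KO, against 2599 and 2897 in WT, and rose by 0.71 ± 0.070. Ndufv3, Ndufv1 and Ndufb9 of the same complex rose by 0.53 ± 0.090, 0.41 ± 0.071 and 0.36 ± 0.064. The 3 members that fell belong to this complex too: Ndufb7 (-0.54 ± 0.11), Ndufb10 (-0.36 ± 0.11) and Ndufc2 (-0.27 ± 0.077). For mitochondrial ribosomal proteins 6 rose and 3 fell of 77 tested (7.79% and 3.9%; median 0.089), and for the tricarboxylic acid cycle 4 rose and 1 fell of 24 tested (16.7% and 4.17%; median 0.091). Of lysosome and autophagy genes 9 rose and 4 fell of 37 tested (24.3% and 10.8%; median 0.076). The members named here rose, with the proteases cathepsin B (Ctsb) at 12670.1 and 11718 in Kdm5a KO, against 8394 and 7904 in WT (0.58 ± 0.056), cathepsin Z (Ctsz) at 2609.8 and 2497 in Kdm5a KO, against 1782 and 1661 in WT (0.57 ± 0.071) and cathepsin L (Ctsl) at 7565 and 7482 in Kdm5a KO, against 6043 and 5986 in WT (0.32 ± 0.048), and with Ctsa at 2115 and 2091 in Kdm5a KO, against 1366 and 1369 in WT (0.62 ± 0.073). Of the glycolysis list, 7 rose without Kdm5a KO replicate 1. Of the oxidative phosphorylation list, 5 rose without Kdm5a KO replicate 1, and 6 rose without WT replicate 2. Also, 17 rose with TMM scaling, and 1 fell without Kdm5a KO replicate 2 and without WT replicate 1. For oxidative phosphorylation, the median lay between 0.062 without WT replicate 2 and 0.13 without WT replicate 1. Of the mitochondrial ribosomal protein list, 1 rose without Kdm5a KO replicate 1, and 3 rose without Kdm5a KO replicate 2. Also, 10 rose with TMM scaling, and 1 fell with TMM scaling, with DESeq2, without Kdm5a KO replicate 2 and without WT replicate 1. For mitochondrial ribosomal protein, the median lay between 0.044 without Kdm5a KO replicate 2 and 0.089 without Kdm5a KO replicate 1. Of the tricarboxylic acid cycle list, 2 rose without Kdm5a KO replicate 1 or 2 and without WT replicate 2, and 0 fell with no filter on low values, in a fit of the 4 libraries alone, with TMM scaling, with edgeR, with DESeq2 and without WT replicate 2. For tricarboxylic acid cycle, the median lay between 0.025 without WT replicate 2 and 0.089 without WT replicate 1. Of the lysosome and autophagy list, 1 fell without Kdm5a KO replicate 1 or 2, and the median lay between 0.049 without WT replicate 1 and 0.084 without WT replicate 2.

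In the Wnt pathway 5 rose and 12 fell of 48 tested (10.4% and 25%; median -0.11). The receptor gene Fzd5 had 233 and 229 in Kdm5a KO, against 505 and 454 in WT, and fell by 1.05 ± 0.15. Fzd7, another receptor, had 949.5 and 969.7 in Kdm5a KO, against 1515 and 1504 in WT, and fell by 0.65 ± 0.071. The secreted enhancer Rspo3 fell by 0.62 ± 0.091 and the nuclear effector Tcf7l2 fell by 0.66 ± 0.091. In the TGF-beta and BMP pathway 9 rose and 10 fell of 49 tested (18.4% and 20.4%; median 0.041). Follistatin (Fst), an antagonist of activin and myostatin, had 1016 and 1233 in Kdm5a KO, against 322 and 520.2 in WT, and rose by 1.45 ± 0.17, the BMP antagonist Chrd had 1751 and 1821 in Kdm5a KO, against 818 and 959 in WT, and rose by 1.01 ± 0.11, and the receptor Acvr2a and the corepressor Skil fell (log2 changes -0.54 ± 0.070 and -0.63 ± 0.056). Among heat shock genes 0 rose and 4 fell of 20 tested (0% and 20%; median -0.062): the small heat shock protein gene Hspb8 had 5365 and 4962 in Kdm5a KO, against 10558 and 9794 in WT, and fell by 0.98 ± 0.073. Dnajb1 fell by 0.39 ± 0.088. Hspb6 fell by 0.54 ± 0.12 (adjusted p = 0.0676 without Kdm5a KO replicate 2), and Hspb2 fell by 0.38 ± 0.10, with adjusted p of 0.0678, 0.0895 and 0.0951 without Kdm5a KO replicate 1, Kdm5a KO replicate 2 and WT replicate 1. Of the Wnt pathway list, 2 rose with no filter on low values, with a minimum mean of 50 and without Kdm5a KO replicate 1 or 2, and 3 rose with DESeq2 and without WT replicate 1. For Wnt pathway, the median was -0.064 with TMM scaling. Of the TGF-beta and BMP pathway list, 5 rose without WT replicate 1, and the median lay between -0.0045 without WT replicate 1 and 0.046 without Kdm5a KO replicate 2. Of the heat shock list, 1 rose with TMM scaling and with edgeR, and 2 fell without Kdm5a KO replicate 2. For heat shock, the median lay between -0.12 without WT replicate 2 and -0.049 without Kdm5a KO replicate 2.

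The other genes with the largest changes belong to no list above. Among rises, Iapp, the peptide hormone amylin, had 151 and 86.8 normalised reads in Kdm5a KO, against 0 reads in both WT libraries, at least 67.9-fold higher. Srgn, serglycin, a proteoglycan of secretory granules, had 379 and 378 in Kdm5a KO, against 15.6 and 23.5 in WT, and rose by 4.24 ± 0.42 (adjusted p = 1.68e-05). Gnb3, a G protein beta subunit, had 834 and 877 in Kdm5a KO, against 73.0 and 108 in WT, and rose by 3.25 ± 0.37 (adjusted p = 4.52e-05). Umodl1 had 311 and 259 in Kdm5a KO, against 34.7 and 29.8 in WT, and rose by 3.10 ± 0.28. Acss1, a mitochondrial acetyl-CoA synthetase, had 162 and 151 in Kdm5a KO, against 22.7 and 36.2 in WT, and rose by 2.40 ± 0.39. In each of these both KO libraries lay above both WT libraries. Among falls, Kctd8, an auxiliary subunit of GABA-B receptors, had 17.2 and 21.0 in Kdm5a KO, against 249 and 289.9 in WT, and fell by 3.75 ± 0.19 (adjusted p = 8.32e-08). Prdm8, a PR-domain factor, had 15.4 and 6.30 in Kdm5a KO, against 156 and 129 in WT, and fell by 3.71 ± 0.37. Tfpi, the tissue factor pathway inhibitor, had 29.8 and 46.2 in Kdm5a KO, against 321 and 394 in WT, and fell by 3.22 ± 0.21. Samd5 had 59.7 and 43.4 in Kdm5a KO, against 441 and 446 in WT, and fell by 3.10 ± 0.18. Fam174b had 70.5 and 98.7 in Kdm5a KO, against 526 and 656 in WT, and fell by 2.80 ± 0.23. Sprr3, a protein of the cornified envelope, had 37.1 and 25.9 in Kdm5a KO, against 240.5 and 236 in WT, and fell by 2.90 ± 0.54. Several genes named here share exons with a neighbour that could take or give reads, among them Ccna2 (Exosc9), Ckm (A930016O22Rik), Col4a1 (Col4a2), Ctsa (Pltp), Ctsb (Fdft1), Des (Gm15179), Gys1 (Ruvbl2), Igf2 (Igf2os), Itga7 (Mettl7b), Mb (Apol6), Mest (Copg2), Mfap4 (Mapk7), Prc1 (Rccd1), Tagln (Pcsk7), Tbx3 (Tbx3os1) and Tpi1 (Spsb2), and their values are uncertain to that extent.

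Small nucleolar RNAs (snoRNAs), which guide the chemical modification of ribosomal RNA, fell as a class that was looked at after its values were seen. Of 122 tested, 68 fell and 2 rose, with a median of -1.198, against 14.2% and 13.6% of all genes. Of the 69 that share no exons with another gene 39 fell and 1 rose. Among all 122, 18 of 22 with Snora symbols (the H/ACA type) and 10 of 24 with Snord symbols (the C/D type) fell, and the difference between the types was not tested. Their summed values were 38998 to 47323 in Kdm5a KO and 68992 to 85913 in WT, and the mitochondrial ribosomal RNA mt-Rnr2, which moved the other way, took 16.4% and 16.6% of reads in Kdm5a KO and 13.8% and 14.6% in WT; its part in the result was not tested. Snora64, which lies within Rps2, had 97.7 and 65.8 normalised reads in the Kdm5a KO libraries, against 1198 and 674 in the WT libraries, and fell by 3.47 ± 0.24 (adjusted p = 1.3e-06). The 2 WT libraries differed from each other more than the KO libraries, but stayed above them. Ribosomal protein genes, many of which hold snoRNAs, were counted as well: 2 rose and 10 fell of 69 tested (2.9% and 14.5%; median 0.00). Of the 33 that share exons with another gene 8 fell, of the 36 that share none 2 fell, and 1 rose in each class. Rps2 had 438 and 352 in Kdm5a KO, against 2294 and 1167 in WT, Rpsa 938 and 798 in Kdm5a KO, against 1902 and 1337 in WT and Rps3 7252 and 7328 in Kdm5a KO, against 10625 and 9839 in WT, and they fell (log2 changes -2.06 ± 0.23, -0.88 ± 0.13 and -0.49 ± 0.053). Rpl6 also fell by 0.85 ± 0.15. Rps2 shares exons with Snora64 and Snhg9, Rps3 with Snord15b, Rpsa with Gm24044 and Rpl6 with Gm26205, so their values are uncertain. Of the cytosolic ribosome list, 0 rose without Kdm5a KO replicate 1 and without WT replicate 1, and 1 rose with no filter on low values and without Kdm5a KO replicate 2. Also, 5 fell without Kdm5a KO replicate 2, and the median lay between -0.044 without Kdm5a KO replicate 2 and 0.00 without WT replicate 2.

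Chromosomes 4, 5 and 7 stood apart from the other autosomes. On chromosome 4, 79 genes rose and 212 fell of 1095 (7.21% and 19.4%), with a median of -0.099. On chromosome 5, 68 rose and 242 fell of 976 (6.97% and 24.8%; median -0.15), and on chromosome 7, 72 rose and 244 fell of 1177 (6.12% and 20.7%; median -0.15). The medians of the other autosomes lay between -0.0059 and 0.074. When the genes of each of these chromosomes were cut in their order into blocks of 75, the median was below 0 in 15 of 15, 13 of 13 and 16 of 16 blocks of chromosomes 4, 5 and 7. The block medians nearest 0 were -0.022, -0.058 and -0.0039, so the shift was small in some blocks. More genes fell than rose in 14, 13 and 16 of these blocks. Relative to the mean of the 8 mixed libraries, the median gene of chromosome 5 stood at -0.12 and -0.13 in Kdm5a KO and at 0.039 and 0.0046 in WT, that of chromosome 4 at -0.10 and -0.11 in Kdm5a KO and at 0.050 and 0.029 in WT, and that of chromosome 7 at -0.041 and -0.046 in Kdm5a KO and at 0.095 and 0.072 in WT. With no filter on low values the medians of chromosomes 4, 5 and 7 were -0.0016, -0.092 and -0.053, and with TMM scaling that of chromosome 4 was -0.060. The cause was not tested. Without these chromosomes 1876 genes rose (15.4%) and 1500 fell (12.3%) of 12197. Genes named above that lie there include Musk, Id3, Cdkn2a, Rbbp4 and E2f2 on chromosome 4, Atp2a1, Cdkn1c, Ckm, Igf2, Myod1, Bax and Gys1 on chromosome 7, and Gatad1, Dok7, Hspb8, Kctd8, Prdm8, Tbx3 and Tbx5 on chromosome 5. Around Kdm5a itself, on chromosome 6, 8 of the 40 nearest tested genes rose and 3 fell (27.5%), against 27.8% of all genes and 30.2% of chromosome 6.

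**Figure D4:**
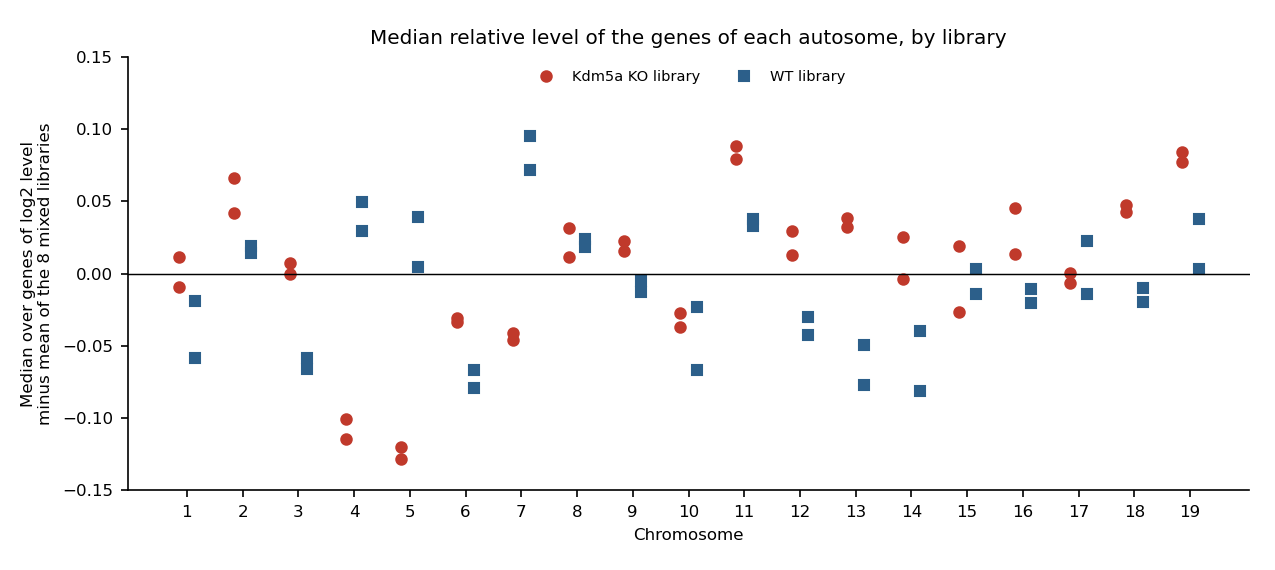
Median over the tested genes of each autosome of the log2 level minus the mean of the 8 mixed libraries, for the 2 Kdm5a KO libraries (circles) and the 2 WT libraries (squares). On chromosomes 4, 5 and 7 both Kdm5a KO libraries lie below both WT libraries, with median changes of -0.099, -0.15 and -0.15.

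Whether these changes also followed loss of Kdm5a without Rb1 was asked by comparing DKO with Rb1 KO cultures, a contrast that shares no library with the one above. It carries the same split by sex: Xist had 6933 and 6809.7 normalised reads in DKO, against 0 in both Rb1 KO libraries, and Ddx3y had 0 in both DKO libraries, against 1267 and 1079.8 in Rb1 KO. Sex and loss of Kdm5a therefore cannot be told apart here either, and a change found in both contrasts is not a separate test of Kdm5a. Reads of Rb1 remained in the cultures labelled as lacking it: 4457 and 4448 in Rb1 KO and 5309 and 5662 in DKO, against 5616 and 5649.5 in WT. Rb1 shares exons with Lpar6 and Rcbtb2. Of 15445 genes, 3573 rose (23.1%) and 3868 fell (25.0%) in DKO against Rb1 KO. Of the 2095 that rose on Kdm5a loss with Rb1 intact, 686 rose in both contrasts (32.7% of the 2095 and 19.2% of the 3573), and 534 (25.5%) fell in DKO. Of the 2198 that fell, 804 fell in both (36.6% of the 2198 and 20.8% of the 3868), and 562 (25.6%) rose in DKO. The difference between the contrasts passed for 6057 of all genes (39.2%; 19.1% more positive and 20.2% more negative without Rb1), for 1226 of the 2095 rises (58.5%) and for 1364 of the 2198 falls (62.1%). The shares of the rises and falls are given as a description, since these genes were chosen by the change with Rb1 intact, which is also a term of the difference. Of the 24 genes with the largest changes, the difference did not pass for Gnb3, Pitx1, Umodl1, Acss1 and Sprr3: Gnb3 rose by 3.73 ± 0.37 in DKO against Rb1 KO, Pitx1 by 2.28 ± 0.36, Umodl1 by 2.91 ± 0.28 and Acss1 by 2.02 ± 0.39, and Sprr3 fell (-2.002 ± 0.54). Except for Umodl1, these sizes rest on few reads and depend in part on the added 1. In Rb1 KO, Gnb3 had 10.8 and 3.62 normalised reads, Pitx1 2.70 and 5.43, and Acss1 2.70 and 3.62. Sprr3 had 0.526 and 0.790 in DKO, against 10.8 and 2.72 in Rb1 KO. Tbx5 fell in both contrasts (-4.52 ± 0.61 in DKO against Rb1 KO), as did Hoxd11 (-2.53 ± 0.25). Hoxb7 rose with Rb1 intact and fell without it (-1.29 ± 0.26, adjusted p of the difference = 2.28e-06). So did Hoxb6 (-1.71 ± 0.45) and Hoxc6 (-2.84 ± 0.26). Of Hox genes 2 rose and 25 fell in DKO against Rb1 KO, with a median of -1.71, and the difference between the contrasts passed for 20 of 33. Musk, Ckm and Atp2a1, which fell with Rb1 intact, rose by 2.71 ± 0.090, 2.09 ± 0.14 and 2.09 ± 0.10 in DKO against Rb1 KO, and the difference passed for each (adjusted p = 4.21e-10, 6.9e-08 and 1.06e-08). Musk had 575 and 604 in DKO, against 94.5 and 84.2 in Rb1 KO. Ckm had 1213 and 1167 in DKO, against 284 and 274 in Rb1 KO, and Atp2a1 7773 and 9605, against 1836 and 2255. The DKO values of these genes lay below the WT values given above. Of sarcomere genes 43 rose and 0 fell in DKO against Rb1 KO, with a median of 1.76, and the difference between the contrasts passed for 42 of 49. Of genes of calcium handling and the junction 26 rose and 2 fell in DKO against Rb1 KO, with a median of 1.21, and the difference between the contrasts passed for 28 of 32. Of imprinted genes 16 rose and 5 fell in DKO against Rb1 KO, with a median of 0.20, and the difference between the contrasts passed for 21 of 34, and of G2/M genes 37 rose and 3 fell in DKO against Rb1 KO, with a median of 0.61, and the difference between the contrasts passed for 24 of 77. Cdkn1c rose by 2.09 ± 0.044 in DKO against Rb1 KO (adjusted p of the difference = 2.21e-11).

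**Figure D5:**
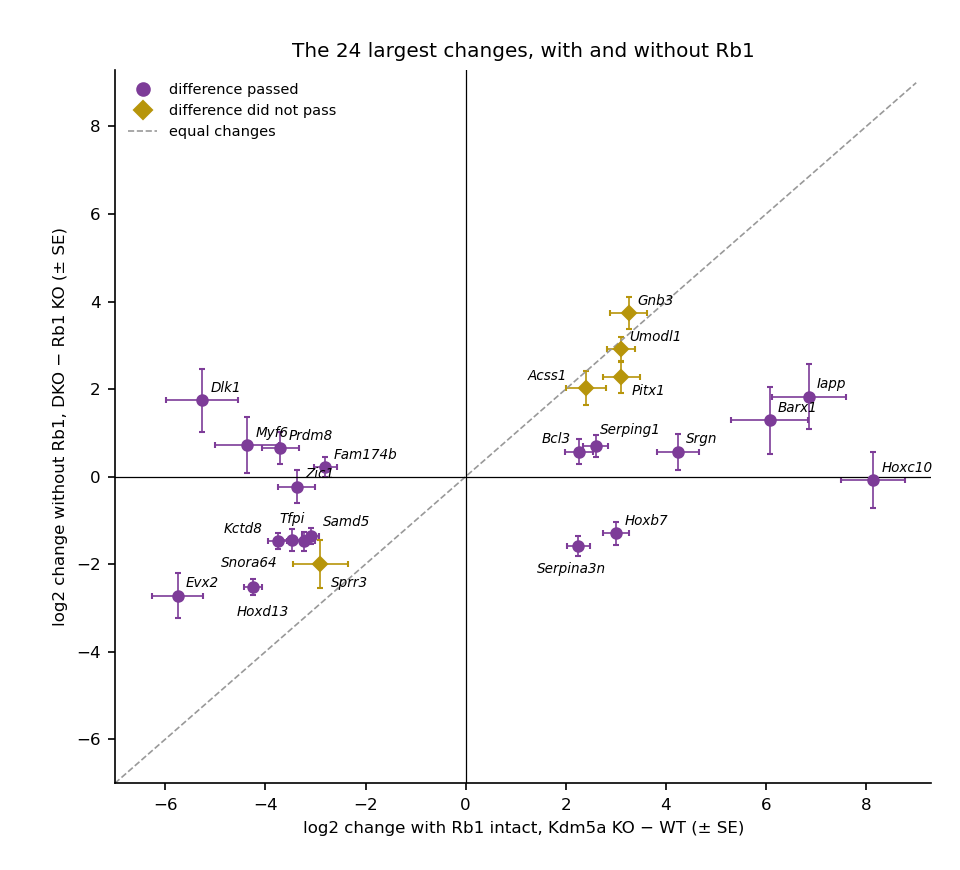
Fitted log2 change with Rb1 intact (Kdm5a KO minus WT, horizontal) against the change without Rb1 (DKO minus Rb1 KO, vertical), each with its SE, for the 24 genes with the largest changes with Rb1 intact; circles mark genes whose difference between the contrasts passed, diamonds the 5 for which it did not, and the dashed line equal changes. Genes were chosen for their size on the horizontal axis, so their smaller size on the vertical axis is in part set by that choice. The horizontal positions of Hoxc10 and Iapp depend on the added 1.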

How the data were processed

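RNA from 12 libraries of MyoD-transduced MEFs was sequenced, and the 8 libraries of mixed cultures entered the fit. The submitters' processing notes name TopHat 1.2.0, the mm9 build and DESeq (no version). The counting tool, its annotation and strand setting are not given in the sources used here. The deposited values are a signal: the authors divided the read count of each gene by a size factor of the library. Multiplying back by the step between low values gave whole reads for 100% of values (within 0.01). Totals were 21567550 and 27688963 reads in the Kdm5a KO libraries and 16458373 and 18469731 in the WT libraries, and the median absolute log2 difference between replicates was 0.15 in Kdm5a KO and 0.18 in WT. Intervals and floors cover counting error only.

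Gene names, chromosomes and exon sharing came from GENCODE M21 (30983 IDs matched), whose build differs from mm9, so none of its coordinates are printed except those of the RefSeq promoters. Of 15445 tested genes outside X and Y, 72.0% had a promoter window, under the 80% needed, so a comparison of motif shares between called and other genes is void. Genes with a mean of at least 10 over the 8 libraries were tested on log2(value + 1) with limma 3.58.1 (R 4.3.3), with 1 group per genotype and a shared estimate of the spread, and p-values were adjusted over all genes by Benjamini-Hochberg at 0.05. The analysis was tested on simulated data. edgeR 4.0.16 on the recovered reads called 2407 rises and 2058 falls. DESeq2 1.42.0, TMM and total-count scaling, other added values and filters, a replicate block and leaving out each library were the alternatives.

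The members and lists were chosen with earlier results of these data known. Genes were named as the 12 largest rises and 12 largest falls outside X and Y that passed with no overlap of groups and a higher group mean of at least 100, leaving out clone, model and mitochondrial names, up to 4 members with the smallest p of each described list, every member of the KDM5, pocket protein and E2F list, and Kdm5a, Kdm5b, Kdm5c, Kdm5d, Rb1, Myod1, Myog, Myh3, Ckm, Ppargc1a, Xist and Ddx3y. The following were chosen after their values were seen: B2m, Cacng1, Cdc25a, Cdk1, Cdkn1a, Colq, Eif2s3y, Fn1, Hand2, Hoxb6, Hoxc6, Hoxd10, Hoxd11, Hoxd12, Ifitm3, Kdm6a, Kif18a, Kif18b, Mcm5, Mymk, Ndufb7, Ndufb10, Ndufc2, Neb, Osr2, Pdgfrb, Prc1, Rpa2, Rtl1, Socs3, Stat2, Tbx3, Tbx5, Troap and Uty.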

Additional observations from a re-analysis of the deposited data

Results flagged for a closer look

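The change on loss of Kdm5a differed with and without Rb1 for 26 of 32 genes (the 24 with the largest changes and 8 for the targeted genes, Kdm5b and muscle), by limma's test of the difference itself (adjusted p under 0.05, 39.2% of all genes). The 24 were chosen for their change with Rb1 intact, which is also a term of this difference, so the share that passed follows in part from the choice. The values are log2 differences, DKO minus Rb1 KO less Kdm5a KO minus WT, so a positive one means a more positive change without Rb1. Of these, 17 were positive: Ckm (3.39), Dlk1 (7.01), Evx2 (3.03), Fam174b (3.02), Hoxd13 (1.72), Kctd8 (2.28), Myf6 (5.08), Myh3 (1.78), Myod1 (0.59), Myog (1.28), Ppargc1a (1.21), Prdm8 (4.36), Rb1 (0.43), Samd5 (1.74), Snora64 (2.02), Tfpi (1.74) and Zic1 (3.15). The remaining 9 were negative: Barx1 (-4.78), Bcl3 (-1.69), Hoxb7 (-4.29), Hoxc10 (-8.23), Iapp (-5.03), Kdm5b (-0.52), Serpina3n (-3.84), Serping1 (-1.90) and Srgn (-3.67). The sizes for Hoxc10 and Iapp depend on the added 1, since WT libraries hold no read of them. Those for Myf6, Dlk1, Barx1 and Evx2 also rest on groups near 0. Myf6 had 0.526 and 2.37 normalised reads in DKO, against 0 and 0.905 in Rb1 KO. Dlk1 had 0 and 5.60 in Kdm5a KO, Evx2 2.71 and 2.10 in Kdm5a KO, and Barx1 0 and 9.59 in WT. Rb1 kept reads in the Rb1 KO and DKO libraries, as given above.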

How the results depend on the processing

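Of 165 named genes that passed, 152 kept direction and call wherever they were tested among the 15 alternatives. Another 13 lost the call under at least 1 (Tfdp2, Lin9, E2f2, Rbbp7, Foxo1, Hspb6, Hspb2, Twist1, Kif18b, Troap, Cdc25a, Rpa2 and Mcm5). The direction changed for 0 of the 165 where they were tested. Not every gene was tested under every alternative. Genes on X and Y, such as Xist and Ddx3y, were absent where X and Y genes were left out. Genes with low values, such as Tbx5 and Hoxc9, were absent under the stricter filter on the mean. The number of genes that rose ranged over the single left-out libraries from 1240 to 1921. The calls among the 40 genes next to Kdm5a, 11 in all, were 7 with no filter on low values and 4 to 11 with a library left out. The replicate numbers do not pair the libraries (correlations of same-numbered deviations from -0.033 to 0.053), and with a replicate block 2080 genes rose and 2172 fell, with Kif18b no longer called (adjusted p = 0.0586). The difference between contrasts turned round for Gnb3 with 5 added (-0.070) and for Sprr3 with edgeR (-0.095) and DESeq2 (-0.22); neither had passed. The other turns were in genes that had not passed. E2f8 went to 0.038 with TMM, 0.015 with total-count scaling, 0.032 with edgeR and 0.013 with DESeq2. With a library left out, E2f8 ranged from -0.092 to 0.085, Phf12 from -0.075 to 0.15, Rbl1 from -0.094 to 0.18, Lin37 from -0.11 to 0.33, Sin3b from -0.12 to 0.20, E2f6 from -0.047 to 0.17, E2f7 from -0.091 to 2.31 and Rbl2 from -0.14 to 0.00035. The cause of these turns was not tested. Fitted changes of genes near 0 reads rest on the added 1. Ndufb7, Ndufb10 and Ndufc2 were not among the 165 named genes, nor were the fibroblast markers Thy1, Pdgfra and Col1a2.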
